A study of Mus musculus with 6 samples.

Results

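The 7 genes described here act in blood coagulation and in the activation of plasminogen. They were chosen by name, with earlier results of these data known, from the 54532 genes of the deposited expression table. F3, Thbd, Procr, F13a1, Plau, Plaur and Thbs1 were all found there. RNA-seq was performed on mouse peritoneal macrophages to ask which transcripts muscone, a macrocyclic ketone first obtained from musk, alters in cells with an activated NLRP3 inflammasome. The study's methods describe macrophages elicited with thioglycolate in male C57BL/6J mice of 6 to 8 weeks, and the labels give the genotype as WT in all groups. Control cells were left untreated. Model cells were primed with 500 ng/mL LPS for 5.5 h and then stimulated with 2 mM ATP for 0.5 h. In the MUS group 50 μM muscone was added 0.5 h before ATP, on top of the LPS and ATP given to Model cells. Each of the 3 groups had 2 libraries, and by the labels a library's batch, 1 or 2, equals its replicate number. No source used here says whether replicates came from separate mice or cultures, so the p-values measure the spread between these libraries, which may be technical.

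Expression was given as FPKM, the fragments on a gene relative to its length in kilobases and to the library's size. The table still allowed the fragments on each gene to be recovered. A library held between 15526321 and 17135442 fragments on genes. Macrophage identity was checked with 7 marker genes (Adgre1, Csf1r, Cd68, Itgam, Lyz2, Mrc1 and Fcgr1), and all 7 had a mean of 1 FPKM or more, led by Lyz2 at 10140 FPKM. The 5 endothelial genes, the 5 mesothelial genes and the 5 platelet genes each had 0 members at that level. B cell, T and NK cell and mast cell lists also had 0, and the 4 eosinophil genes were listed at 0 in all 6 libraries. Of 5 fibroblast genes 4 passed, with Col1a1 highest at 7.78 FPKM. Of 5 neutrophil genes 2 passed, with S100a8 highest at 54.2 FPKM, while S100a9 and Ly6g were listed at 0 throughout.

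Coagulation starts when tissue factor, the product of F3, binds factor VII on a cell surface and activates factor X, which leads to thrombin and fibrin. Thrombomodulin and the endothelial protein C receptor turn thrombin towards activation of protein C, an anticoagulant, and factor XIII crosslinks fibrin. Urokinase, held at the cell surface by its receptor, converts plasminogen to plasmin, which dissolves fibrin, and macrophages are known to express tissue factor, urokinase and its receptor after exposure to LPS.

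A pair of libraries stood apart from the rest. Control replicate 2 held more transcript of genes that respond to LPS than Control replicate 1, although both were labelled untreated. Tnf, a cytokine gene induced by LPS, had 8.62 FPKM in Control replicate 1 and 183 FPKM in Control replicate 2, against 1510 and 1034 FPKM in Model. Ptgs2, which encodes the inducible cyclooxygenase, had 0.907 and 32.1 FPKM in Control and 2494 and 1976 FPKM in Model. Nos2, the inducible nitric oxide synthase gene, was listed at 0 in Control replicate 1 and had 0.366 FPKM in Control replicate 2, against 70.9 and 124 FPKM in Model. Of the 930 genes upregulated in Model vs. Control, 799 were higher in Control replicate 2 than in Control replicate 1, as were 76 of the 545 downregulated genes and 5213 of all 9794 genes tested. Model replicate 1 had at least 1 fragment on 24906 genes, whereas the other libraries had between 17406 and 19200. Where a DEG call for a gene named below changed when 1 library was left out, that library is named.

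Differences were tested with limma on log2(FPKM + 1) in the 9794 genes whose mean over the libraries reached 1 FPKM, and all 7 genes passed this filter. A gene counted as a DEG when its log2 fold change exceeded 1 in size and its adjusted p (Benjamini-Hochberg) did not exceed 0.05. In Model vs. Control, F3, Thbs1, Plaur and Procr rose, so 4 of the 7 genes were upregulated DEGs, and 0 were downregulated. Among all genes tested, 15.1% were DEGs, 9.5% upregulated and 5.56% downregulated. In MUS vs. Control the same 4 genes were upregulated DEGs and 0 were downregulated, where 20.2% of all genes were DEGs, 11.3% upregulated and 8.91% downregulated. Both comparisons use the same Control libraries. In MUS vs. Model, 0 of the 7 genes were DEGs in limma, as were 0% of all genes, and 1 of the 7 had an unadjusted p under 0.05 (825 of all 9794). With voom on recovered fragments these counts of DEGs were also 0.

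The median log2 fold change of the 7 genes was 1.93 in Model vs. Control, 0.04 in MUS vs. Model and 1.74 in MUS vs. Control, beside medians of 0.04, 0.01 and 0.04 over all genes tested. Against Control it is the value of Procr, and without Control replicate 1 it was 1.23 in Model and 1.03 in MUS. For 7 of the 7 genes the Model and the Control values did not overlap, which also held for 61.1% of all genes. MUS and Control were separate in the same way for 7 genes, against 73.3% of all genes. MUS and Model were separate for 3 of the 7 genes, F3, Thbs1 and Procr, and for 42.1% of all genes, a share close to that of the 7. The scale of the deposited FPKM relative to fragment totals differed between Control and the other groups. Scaled to the fragment total of each library, the median of all genes moved to -0.40 in Model vs. Control and to -0.39 in MUS vs. Control. Relative to these medians, F3, Thbs1, Plaur and Procr were still higher, and Thbd, Plau and F13a1 lower, than in Control.

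**Figure D1:**
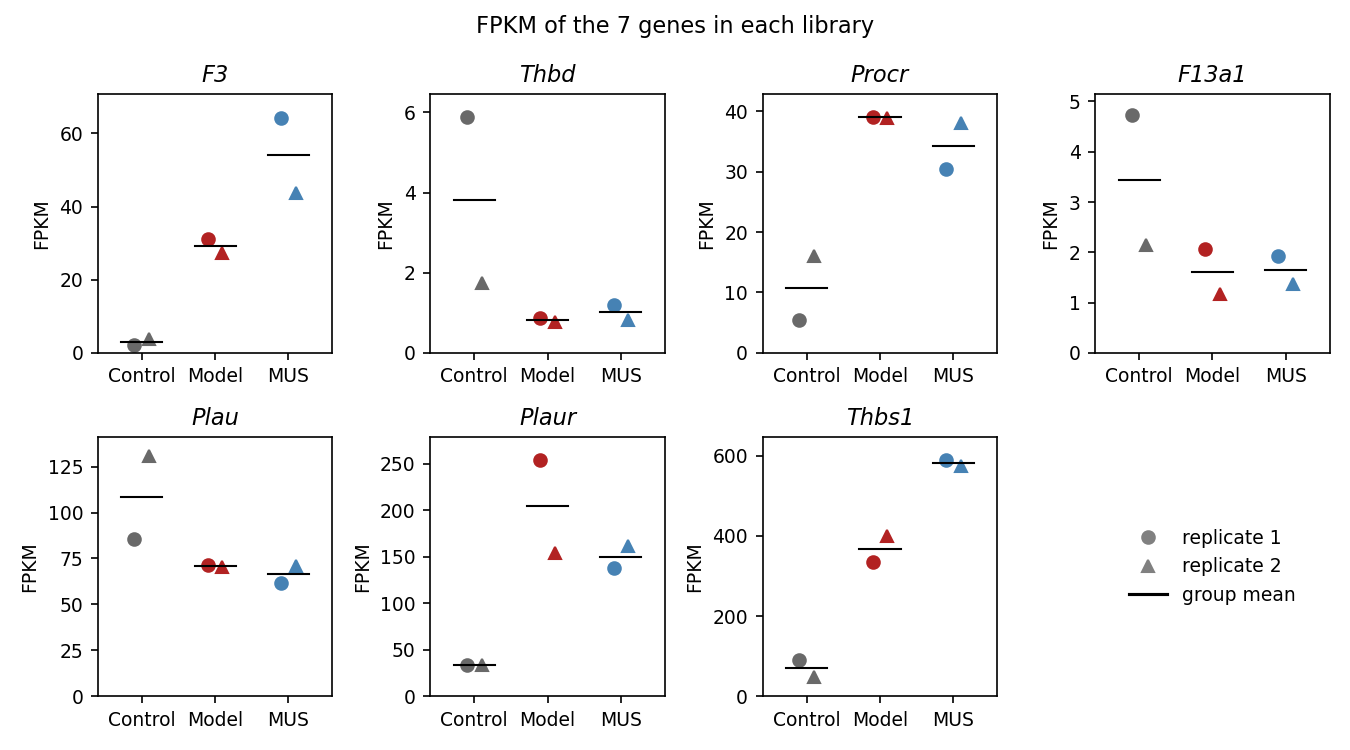
FPKM of the 7 genes (vertical axes, linear and starting at 0) in each library of Control, Model and MUS, with circles for replicate 1, triangles for replicate 2 and a line at the mean of each group. F3 lies between 2.15 and 3.77 FPKM in Control and between 43.7 and 64.3 FPKM in MUS, and the 2 Control libraries of Thbd and Procr lie far apart.

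F3 (ENSMUSG00000028128, chromosome 3, 121723537 to 121735048, plus strand) encodes tissue factor, the receptor that initiates coagulation. It had 2.15 and 3.77 FPKM in Control replicates 1 and 2, 31.1 and 27.3 FPKM in Model, and 64.3 and 43.7 FPKM in MUS. Control was lowest, Model intermediate and MUS highest, and no 2 groups overlapped. Control values rested on 124 and 218 fragments, Model values on 1110 and 1068, and MUS values on 2456 and 1793. The group means were 2.96 ± 1.15, 29.2 ± 2.72 and 54.0 ± 14.6 FPKM (SD, n = 2 each). On the log2(FPKM + 1) scale F3 rose by 2.96 in Model vs. Control (standard error 0.32, limma Benjamini-Hochberg adjusted p = 0.00291). Within batch 1 the difference was 3.35 and within batch 2 it was 2.57. The rise was 3.26 without Control replicate 2 (limma adjusted p = 0.00192) and 2.87 without Model replicate 1 (adjusted p = 0.0265). In a sample of whole cultures, a change in the number of expressing cells and a change in RNA per cell cannot be told apart, for F3 or for any other gene here.

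In MUS vs. Model the log2 difference of F3 was 0.84, with a 95% confidence interval from 0.095 to 1.59, an unadjusted p of 0.0322 and a limma Benjamini-Hochberg adjusted p of 0.528. F3 thus did not pass the test, although both MUS libraries lay above both Model libraries and the difference was positive in batch 1 (1.02) and batch 2 (0.66). Of all log2 differences in MUS vs. Model, 97.3% were smaller. Without Model replicate 1 the difference was 0.93 (limma adjusted p = 0.911). Against Control, F3 rose by 3.80 in MUS (limma adjusted p = 0.00133).

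Thbd (ENSMUSG00000074743, chromosome 2, 148404466 to 148408188, minus strand) encodes thrombomodulin, the thrombin receptor that redirects thrombin towards protein C. It had 5.90 and 1.75 FPKM in Control, 0.876 and 0.763 FPKM in Model, and 1.21 and 0.827 FPKM in MUS. Control replicate 1 stood far above the rest, Control replicate 2 was closer to the treated libraries, and the Control libraries did not overlap with the other groups. The treated values rest on few fragments, 46 and 44 in Model and 68 and 50 in MUS, against 502 and 149 in Control. In Model vs. Control its log2 difference was -1.26 (standard error 0.41, limma Benjamini-Hochberg adjusted p = 0.0806) and against Control in MUS it was -1.12 (adjusted p = 0.0914), so Thbd was not a DEG. With the batch as a replicate block Thbd was a DEG in both, with limma adjusted p = 0.0414 and 0.0484. Without Control replicate 2 it fell by 1.92 in Model (limma adjusted p = 0.00553) and by 1.78 in MUS (adjusted p = 0.00655). Without Control replicate 1 the Model difference was -0.60 (limma adjusted p = 0.256), and without Model replicate 1 it was -1.305 (adjusted p = 0.198). Scaling to fragment totals also made Thbd a DEG, at -1.67 in Model (limma adjusted p = 0.0385), or -1.26 relative to the median of all genes, and at -1.52 in MUS (adjusted p = 0.0431). Between MUS and Model the difference was 0.14 (95% confidence interval -0.84 to 1.12, limma adjusted p = 0.96).

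Procr (ENSMUSG00000027611, chromosome 2, 155751117 to 155755471, plus strand) encodes the endothelial protein C receptor, which presents protein C to thrombomodulin-bound thrombin. It had 5.45 and 16.1 FPKM in Control, 39.1 and 38.9 FPKM in Model, and 30.4 and 38.1 FPKM in MUS. The 2 Model libraries were nearly equal, the Control libraries differed from each other more than any treated pair did, and both Control libraries lay below all others. Procr rose by 1.93 on the log2 scale in Model (standard error 0.45, limma Benjamini-Hochberg adjusted p = 0.0298) and by 1.74 in MUS (adjusted p = 0.033) against Control. Within batches 1 and 2 the Model difference was 2.64 and 1.22. The rise in Model was 2.63 without Control replicate 2 (limma adjusted p = 0.00245), and Procr was not a DEG without Control replicate 1 (1.23, adjusted p = 0.0593) or without Model replicate 1 (1.93, adjusted p = 0.116). Leaving out any single library other than Control replicate 2 ended the call in both comparisons with Control, with limma adjusted p between 0.0539 and 0.164. In Model vs. Control it was also lost without the filter on low values (limma adjusted p = 0.155), with quantile normalization (adjusted p = 0.0667) and with only 2 groups in the fit (adjusted p = 0.0707), and in MUS vs. Control under these and with fragment totals (adjusted p = 0.0645). The log2 difference between MUS and Model was -0.19 (95% confidence interval -1.26 to 0.87, limma adjusted p = 0.946), with MUS replicate 2 only slightly below the Model libraries.

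Thrombomodulin and the protein C receptor, which act together on endothelium, thus had differences of opposite sign from Control. Whether the 2 changes differ was not tested. The summed FPKM of the endothelial markers was 0.663 and 0.499 FPKM in Control, 1.34 and 1.16 FPKM in Model, and 1.44 and 1.26 FPKM in MUS, with Kdr the most abundant at 0.713 FPKM and no marker listed at 0 in all libraries. These sums were below the Procr values in every library. They were below the Thbd values in Control but above them in all Model and MUS libraries. What part endothelial cells had in the result was not tested.

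F13a1 (ENSMUSG00000039109, chromosome 13, 36867178 to 37050244, minus strand) encodes the A subunit of factor XIII, the transglutaminase that crosslinks fibrin. It had 4.72 and 2.15 FPKM in Control, 2.06 and 1.17 FPKM in Model, and 1.93 and 1.38 FPKM in MUS. Control replicate 1 stood above the rest, and Control replicate 2 exceeded Model replicate 1 by little. The log2 difference was -0.72 in Model vs. Control (limma Benjamini-Hochberg adjusted p = 0.185), -0.68 against Control in MUS (adjusted p = 0.179) and 0.04 between MUS and Model (adjusted p = 0.988), and none passed the test. Without Control replicate 2 the first was -1.15 (limma adjusted p = 0.0527). It was -0.29 without Control replicate 1 (limma adjusted p = 0.646), -0.97 without Model replicate 1 (adjusted p = 0.191) and -0.47 without Model replicate 2 (adjusted p = 0.431). With fragment totals the difference from Control was -1.144 in Model (limma adjusted p = 0.0557), or -0.74 relative to the median of all genes. In MUS it was -1.10 (limma adjusted p = 0.0566). With voom in limma F13a1 had -1.117 in Model (adjusted p = 0.128) and -1.043 in MUS (adjusted p = 0.126). Antisense genes Gm49144 and Gm30489 overlap F13a1 but had mean values of 0 and 0.00616 FPKM.

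Plau (ENSMUSG00000021822, chromosome 14, 20836660 to 20843385, plus strand) encodes urokinase, the protease that cleaves plasminogen to plasmin. It had 85.8 and 131 FPKM in Control, 71.2 and 70.6 FPKM in Model, and 61.6 and 71.0 FPKM in MUS. Control was highest, the Model libraries were nearly equal, and MUS overlapped with Model. The log2 difference of Plau from Control was -0.57 in Model (standard error 0.32, limma Benjamini-Hochberg adjusted p = 0.252), -0.67 in MUS (adjusted p = 0.166) and -0.099 between MUS and Model (adjusted p = 0.965), so Plau was not a DEG. Quantile normalization made Plau a DEG, at -1.36 in Model (limma adjusted p = 0.03) and -1.39 in MUS (adjusted p = 0.0203). Scaling to fragment totals did so too, at -1.12 in Model (limma adjusted p = 0.0334), or -0.71 relative to the median of all genes, and at -1.21 in MUS (adjusted p = 0.0212). With voom and trimmed-mean scaling in limma, Plau was not a DEG, at -0.66 in Model (adjusted p = 0.156) and -0.76 in MUS (adjusted p = 0.0915). Without Control replicate 2, the library with the highest Plau value, the difference in Model was -0.27 (limma adjusted p = 0.552), and it was -0.87 without Control replicate 1 (adjusted p = 0.145) and -0.58 without Model replicate 1 (adjusted p = 0.367).

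Plaur (ENSMUSG00000046223, chromosome 7, 24462484 to 24475968, plus strand) encodes the urokinase receptor. It had 34.0 and 34.0 FPKM in Control, 254.5 and 155 FPKM in Model, and 138 and 161 FPKM in MUS. The Control libraries were nearly identical and far below all others, Model replicate 1 stood alone at the top, and Model replicate 2 lay between the MUS libraries. Plaur rose by 2.51 on the log2 scale in Model (standard error 0.34, limma Benjamini-Hochberg adjusted p = 0.00575) and by 2.10 in MUS (adjusted p = 0.00772) against Control. With quantile normalization the rises were 1.74 in Model (limma adjusted p = 0.0108) and 1.53 in MUS (adjusted p = 0.0116). The rise in Model was 2.51 without Control replicate 2 (limma adjusted p = 0.00786) and 2.15 without Model replicate 1 (adjusted p = 0.0292). The log2 difference in MUS vs. Model was -0.41 (95% confidence interval -1.22 to 0.41, limma adjusted p = 0.812), and without Model replicate 1 it was -0.051. Within batch 1 that difference was -0.88 and within batch 2 it was 0.06, so it rested on Model replicate 1. In MUS vs. Control the call was lost without MUS replicate 1 (limma adjusted p = 0.0803), without MUS replicate 2 (adjusted p = 0.0716) and when genes of low value were kept (adjusted p = 0.0534).

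Urokinase and its receptor thus stood in a different order in untreated and stimulated cells. In Control, Plau exceeded Plaur in both libraries, whereas in Model and MUS Plaur exceeded Plau in all libraries. FPKM is a value per length, so these levels can be set beside each other.

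Thbs1 (ENSMUSG00000040152, chromosome 2, 118111876 to 118127133, plus strand) encodes thrombospondin-1, a glycoprotein of platelet granules and extracellular matrix that binds CD36 and CD47. It had 90.0 and 48.8 FPKM in Control, 334 and 399.5 FPKM in Model, and 589 and 573.5 FPKM in MUS. Control was lowest, MUS was highest with closely spaced libraries, and no 2 groups overlapped. Group means were 69.4 ± 29.1, 367 ± 46.0 and 581 ± 10.8 FPKM (SD, n = 2 each), from between 6785 and 56572 fragments in a library. Thbs1 rose by 2.445 on the log2 scale in Model (standard error 0.39, limma Benjamini-Hochberg adjusted p = 0.00907) and by 3.11 in MUS (adjusted p = 0.00367) against Control. With quantile normalization the rises were 1.585 in Model (limma adjusted p = 0.0487) and 2.33 in MUS (adjusted p = 0.0124). The rise in Model was 2.01 without Control replicate 2 (limma adjusted p = 0.00941) and 2.57 without Model replicate 1 (adjusted p = 0.0424), and the call was lost without the filter on low values (adjusted p = 0.0781). In MUS vs. Control it was lost without MUS replicate 1 (limma adjusted p = 0.056).

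Thbs1 differed between MUS and Model by 0.67 on the log2 scale, with a 95% confidence interval from -0.26 to 1.59 and a limma Benjamini-Hochberg adjusted p of 0.721, so it did not pass the test. It was 0.81 in batch 1 and 0.52 in batch 2, and 0.54 without Model replicate 1 (limma adjusted p = 0.984). Of all log2 differences in MUS vs. Model, 95.5% were smaller. The 5 platelet markers summed to between 0.235 FPKM in Model replicate 1 and 1.04 FPKM in Control replicate 2, with Ppbp most abundant at 0.257 FPKM and Gp1bb listed at 0 in all libraries. The fibroblast markers summed to 13.8 and 12.9 FPKM in Control, 15.5 and 24.6 FPKM in Model, and 15.6 and 17.9 FPKM in MUS. The neutrophil markers summed to 20.3 and 34.1 FPKM in Control, 113 and 60.2 FPKM in Model, and 68.7 and 54.7 FPKM in MUS. Within these lists the genes moved in different ways. S100a8 had 13.6 and 30.6 FPKM in Control, 110 and 56.5 FPKM in Model, and 64.0 and 50.3 FPKM in MUS, and made up most of the neutrophil sum, while Mmp8 had means of 5.05, 3.14 and 4.53 FPKM in the 3 groups, in that order. Of the fibroblast genes, Dcn had means of 2.599, 7.07 and 7.13 FPKM in Control, Model and MUS, and Col1a1 had 8.85 and 7.21 FPKM in Control, 5.34 and 14.0 FPKM in Model, and 4.56 and 6.69 FPKM in MUS. What part other cells had in the rise of F3, Thbs1, Plaur and Procr was not tested.

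**Figure D2:**
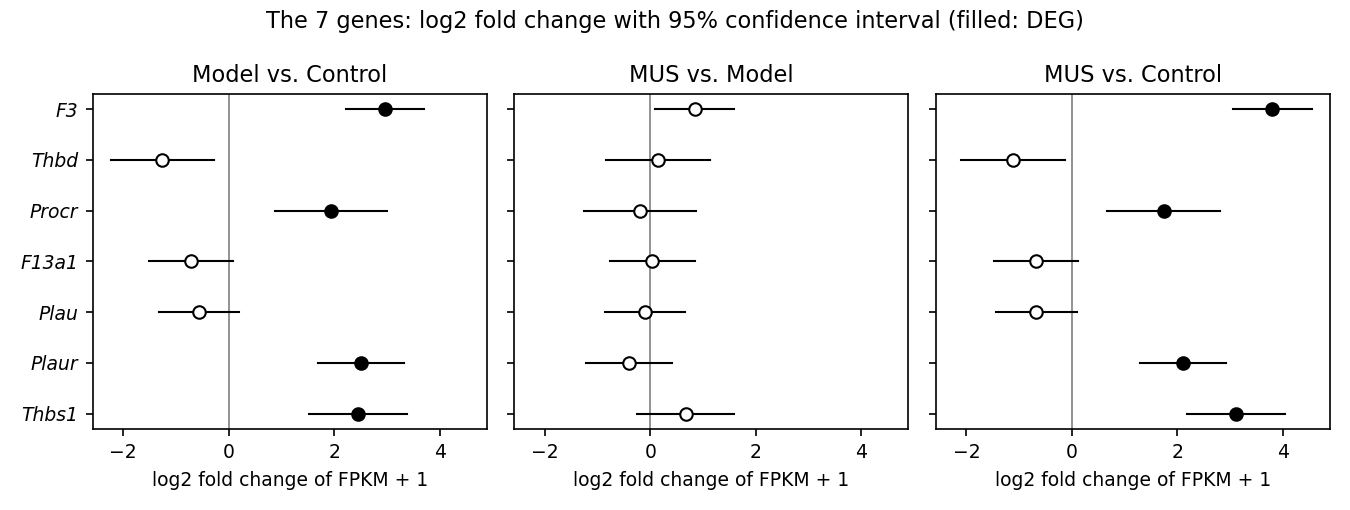
Log2 fold change of FPKM + 1 (horizontal axes) of the 7 genes in the 3 comparisons, with points for the limma estimates, lines for 95% confidence intervals and filled points for DEGs. F3, Procr, Plaur and Thbs1 are filled in Model vs. Control and MUS vs. Control, and no point is filled in MUS vs. Model.

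The 7 genes spanned a wide range of levels. In Control the order of mean FPKM was Plau (108), Thbs1 (69.4), Plaur (34.0), Procr (10.8), Thbd (3.82), F13a1 (3.44) and F3 (2.96), beside a median of 5.36 FPKM over all genes tested. The libraries of Plau and Thbs1 overlapped, as did those of Procr and Thbd and those of Thbd, F13a1 and F3, so these neighbours did not differ beyond their spread. In Model the order was Thbs1 (367), Plaur (205), Plau (70.9), Procr (39.0), F3 (29.2), F13a1 (1.61) and Thbd (0.819), and no neighbours overlapped. In MUS it was Thbs1 (581), Plaur (150), Plau (66.3), F3 (54.0), Procr (34.2), F13a1 (1.66) and Thbd (1.02), with overlap between Plau and F3 only. By group means, F3 moved from the lowest place of the 7 in Control to the fourth place in MUS. In Control replicate 2, however, F3 lay above F13a1 and Thbd. Its mean exceeded that of 30% of the genes tested in Control, 84.3% in Model and 90.8% in MUS. For Thbd, which was not a DEG, the mean exceeded that of 38.7% of genes in Control, where Control replicate 1 (5.90 FPKM) lay far above Control replicate 2 (1.75 FPKM), 3.4% in Model and 7% in MUS.

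Beyond these 7 genes, 55 other genes of haemostasis were listed by function, and 23 of them had a mean of 1 FPKM or more. Model vs. Control gave 6 upregulated DEGs and 0 downregulated DEGs among the 23, where 9.5% and 5.56% of all genes tested were up- and downregulated, and the median of their log2 fold changes was -0.20. The number of downregulated genes varied with the method, with 3 by voom, 3 by quantile normalization (and 4 upregulated), 5 by fragment totals, 2 with the replicate block, 1 with the pseudocount of 0.1 and 1 with the filter at a mean of 5 FPKM. Among all 9794 genes tested, downregulated genes numbered 782, 715 (and 707 upregulated), 1554, 606 and 546 in that order. With the filter at a mean of 5 FPKM they numbered 274 of 5262. MUS vs. Control gave 6 upregulated and 2 downregulated genes (11.3% and 8.91% of all genes) and a median of -0.053. Downregulated genes there numbered 0 by voom, 4 by quantile normalization (and 5 upregulated) and 7 by fragment totals. Among all 9794 genes they numbered 1213, 1102 (and 885 upregulated) and 1953 in that order. Between MUS and Model limma found 0 DEGs among the 23, a median of 0.02 and 1 gene at an unadjusted p under 0.05, and voom found 0. In both comparisons with Control, the counts of DEGs among the 23 also changed when single libraries were left out. So did the counts among all genes tested, and both ranges are given in the closing section.

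Serpinb2, which encodes plasminogen activator inhibitor type 2, had 4.97 and 21.8 FPKM in Control, 508 and 444 FPKM in Model, and 495 and 428 FPKM in MUS. Control was lowest, and MUS and Model overlapped. The log2 rise in Model vs. Control was 5.35 (limma Benjamini-Hochberg adjusted p = 0.00325), and Serpinb2 was still a DEG without the filter on low values (adjusted p = 0.0481). The rise was 6.32 without Control replicate 2 and 4.385 without Control replicate 1. Between MUS and Model the difference was -0.045 (limma adjusted p = 0.991).

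F10, which encodes the factor X that tissue factor and factor VII activate, had 42.2 and 147 FPKM in Control, 458 and 381 FPKM in Model, and 392 and 427 FPKM in MUS. Control replicate 2 was above Control replicate 1 but below all treated libraries. The log2 rise of F10 in Model was 2.39 (limma Benjamini-Hochberg adjusted p = 0.0313), 3.28 without Control replicate 2 (adjusted p = 0.00186) and 1.503 without Control replicate 1 (adjusted p = 0.0494). F10 was not a DEG with quantile normalization (limma adjusted p = 0.114) or when any single Model or MUS library was left out (adjusted p between 0.078 and 0.129). S100a10, which encodes a cell surface partner of annexin A2 that binds plasminogen, rose by 1.84 in Model (limma adjusted p = 0.0163) and by 1.74 without Control replicate 2 (adjusted p = 0.0274). S100a10 was not a DEG with quantile normalization (limma adjusted p = 0.0585) or without Model replicate 1 (adjusted p = 0.0596), MUS replicate 1 (adjusted p = 0.0567) or MUS replicate 2 (adjusted p = 0.0569). With only 2 groups in the fit, F10 and S100a10 were not DEGs (limma adjusted p = 0.0764 and 0.0544). Cd47, a receptor of thrombospondin-1, rose by 1.75 in Model (limma adjusted p = 0.0115; 0.00665 without Control replicate 2 and 0.0525 without Model replicate 1). Xkr8, which encodes a scramblase that exposes phosphatidylserine in apoptotic cells, rose by 2.90 (limma adjusted p = 0.0084). It was not a DEG without Model replicate 1, and the rise was 3.64 without Control replicate 2 and 2.16 without Control replicate 1. With low genes kept in the fit, none of these 4 genes was a DEG in Model vs. Control (limma adjusted p between 0.0618 and 0.171). All 6 upregulated genes were also upregulated DEGs in MUS vs. Control. There, F10, S100a10, Cd47 and Xkr8 were not DEGs without MUS replicate 1 (limma adjusted p between 0.0725 and 0.157) or without MUS replicate 2 (adjusted p between 0.0647 and 0.13). Of these 4, only Cd47 was still a DEG there with low genes kept in the fit (limma adjusted p = 0.0489), and F10 was not one with quantile normalization (adjusted p = 0.0887).

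Gas6, which encodes a ligand of the TAM receptors related to protein S, had 11.7 and 3.21 FPKM in Control, 1.31 and 1.62 FPKM in Model, and 1.22 and 1.55 FPKM in MUS. Like Thbd, it was highest in Control replicate 1 and lowest in the treated groups. Gas6 fell by 1.62 in MUS vs. Control (limma Benjamini-Hochberg adjusted p = 0.0464), with a difference of -2.42 without Control replicate 2 (adjusted p = 0.00249). The call was lost when any single library other than Control replicate 2 was left out (limma adjusted p between 0.0727 and 0.235), with a difference of -0.82 without Control replicate 1. It was also lost without the filter on low values (limma adjusted p = 0.209), with quantile normalization (adjusted p = 0.0668), with voom (adjusted p = 0.0529) and with only 2 groups in the fit (adjusted p = 0.0743). In Model the difference of Gas6 was -1.57 (limma adjusted p = 0.0634). It was a DEG there without Control replicate 2 (-2.37, limma adjusted p = 0.00275), with the replicate block (adjusted p = 0.0454) and with fragment totals (-2.03, adjusted p = 0.0316). Vkorc1, which encodes the vitamin K epoxide reductase that serves carboxylation of clotting factors, fell by 1.10 in MUS vs. Control (limma adjusted p = 0.0181), from 79 and 56 fragments in Control to 11 and 18 in MUS. Vkorc1 was still a DEG without Control replicate 2 (limma adjusted p = 0.0204) and without Model replicate 1 (adjusted p = 0.0258). It was not a DEG without Control replicate 1 (limma adjusted p = 0.0916), MUS replicate 1 (adjusted p = 0.159) or MUS replicate 2 (adjusted p = 0.068), without the filter (adjusted p = 0.0908) or with voom (adjusted p = 0.0642).

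Lrp1, a clearance receptor for urokinase and inhibitor complexes that was chosen after its values were seen, had 89.4 and 60.2 FPKM in Control, 8.21 and 32.4 FPKM in Model, and 21.1 and 29.2 FPKM in MUS. Its log2 difference in Model was -2.08 (limma Benjamini-Hochberg adjusted p = 0.0512), so it was not a DEG. Model replicate 1 was lowest, and the difference was -3.29 within batch 1 and -0.88 within batch 2. Without Model replicate 1 it was -1.16 (limma adjusted p = 0.13), without Control replicate 2 it was -2.37 (adjusted p = 0.065), and without Model replicate 2 Lrp1 was a DEG at -3.01 (adjusted p = 0.0208). Lrp1 was also a DEG in Model with the replicate block (limma adjusted p = 0.0346), with voom (adjusted p = 0.0368), with quantile normalization (adjusted p = 0.0312), with fragment totals (adjusted p = 0.0248) and with the filter at a mean of 5 FPKM (adjusted p = 0.0348). In MUS the difference from Control was -1.525 (limma adjusted p = 0.0983). It was a DEG there without Model replicate 1 (limma adjusted p = 0.0259), without Model replicate 2 (adjusted p = 0.0252), with only 2 groups in the fit (adjusted p = 0.0262), with quantile normalization (adjusted p = 0.0437) and with fragment totals (adjusted p = 0.0418).

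Cd36 encodes the other thrombospondin receptor and was the most abundant of the 23 genes. It had 1032 and 1030 FPKM in Control, 962.5 and 834 FPKM in Model, and 960.5 and 778 FPKM in MUS. Its log2 difference in Model vs. Control was -0.20 (limma Benjamini-Hochberg adjusted p = 0.72). The difference was -0.20 without Control replicate 2 and -0.31 without Model replicate 1. With quantile normalization it was -0.90 (limma adjusted p = 0.0595), or -0.84 relative to the median of all genes. With fragment totals it was -0.75 (limma adjusted p = 0.123), or -0.35 relative to that median. Anxa5, next in mean level, had a difference of 1.11 (limma adjusted p = 0.105), which was 1.20 without Control replicate 2 and 0.72 without Model replicate 1. For Anxa5 it was 0.17 with quantile normalization and 0.56 with fragment totals. Its difference in MUS vs. Control was 1.08 (limma adjusted p = 0.0928), a DEG with only 2 groups in the fit (adjusted p = 0.0488). Ano6, listed with Xkr8 and Anxa5 for phosphatidylserine exposure and chosen after its values were seen, went the other way. Its difference in Model was -0.987 (limma adjusted p = 0.0397), so it missed the size threshold. Ano6 was a DEG there with the pseudocount of 0.1, quantile normalization, fragment totals and voom, and its call also changed without Model replicate 2. In MUS vs. Control it was -0.77 (limma adjusted p = 0.0671), a DEG with fragment totals.

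**Figure D3:**
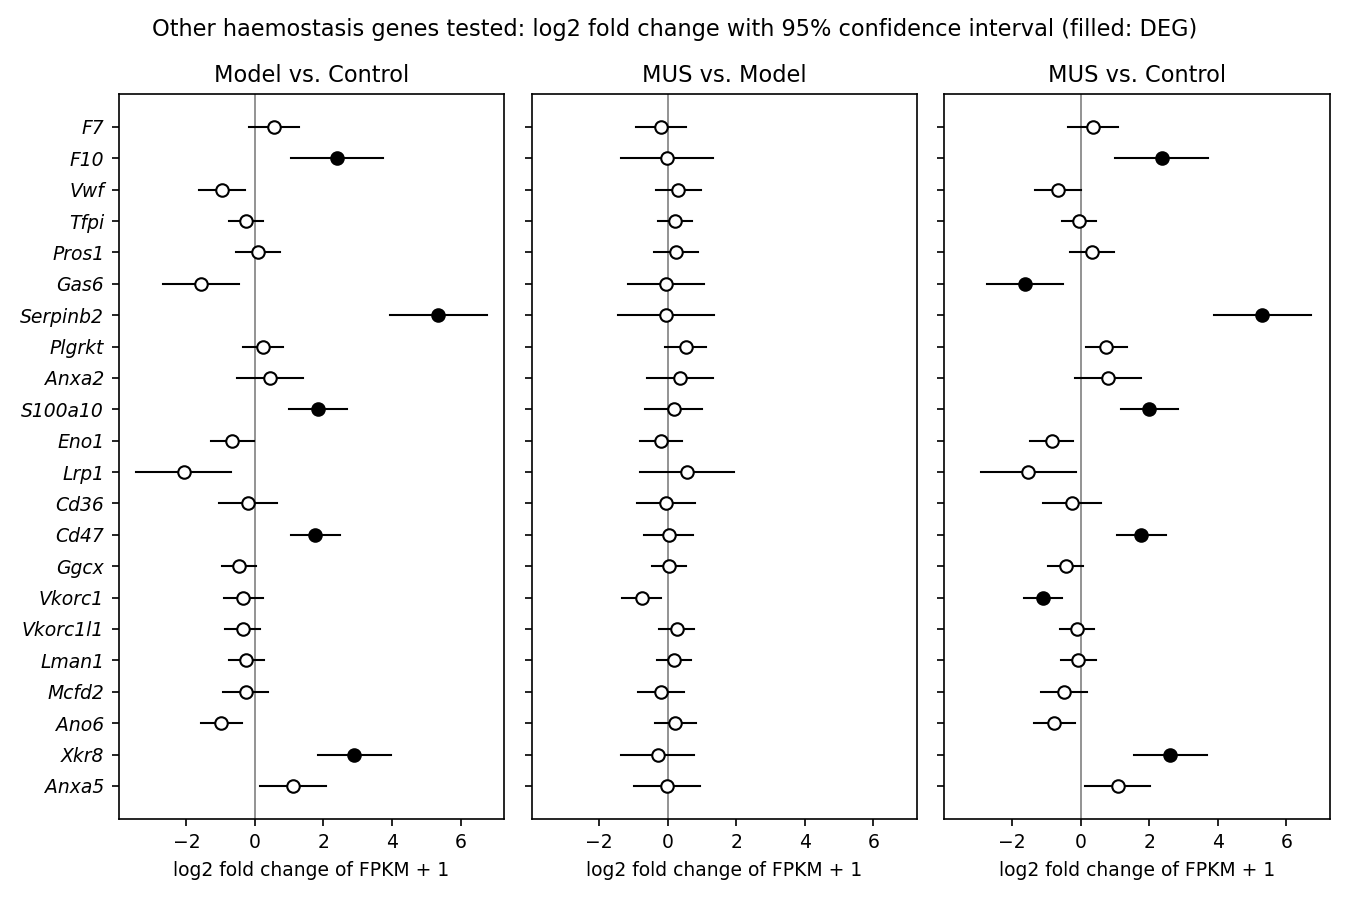
Log2 fold change of FPKM + 1 (horizontal axes) of other haemostasis genes tested in the 3 comparisons, with points for the limma estimates, lines for 95% confidence intervals and filled points for DEGs. Serpinb2 (5.35) lies farthest to the right in Model vs. Control, and no point is filled in MUS vs. Model.

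For each of the 7 genes, the 3 genes tested with the most similar profile over the 6 libraries were found by the root-mean-square difference between log2(FPKM + 1) values centred on each gene's own mean. F3 was closest to Gm4951 (0.201), Tpst1 (0.291) and Mlkl (0.295), and Thbs1 to Osm (0.239), Fcgr4 (0.261) and A530032D15Rik (0.269). Plaur was closest to Dbnl (0.161), Aftph (0.169) and Csrnp1 (0.17), and Procr to Ttc39c (0.082), H2-Q5 (0.108) and H2-Q6 (0.143). These neighbours all had lower values in Control than in Model and MUS. Thbd was closest to Itga6 (0.061), Rpl41 (0.066) and Sod1 (0.092), F13a1 to Klhl9 (0.062), Ybx1 (0.066) and Snx5 (0.068), and Plau to Zfp931 (0.072), Rarg (0.091) and Sec24d (0.11). The neighbours of Thbd and F13a1 were highest in Control replicate 1, and those of Plau in Control replicate 2. All neighbours were picked by their values in these same libraries, so the patterns shared with the 7 genes follow from that choice. H2-Q5, H2-Q6 and Rpl41 belong to families with near-identical copies, so their values are uncertain.

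Promoter sequences from RefSeq (GRCm38.p6) were matched for 4 of the 7 genes, F3, Plaur, Procr and F13a1, but not for Thbs1, Thbd and Plau. A window held 250 bases before and 50 bases after a transcription start of RefSeq. On both strands the AP-1 motif TGANTCA occurred in the windows of F3, Plaur and Procr and in neither window of F13a1, beside 7.81% of all 32851 promoter windows. For all 4 genes at least 1 window held the NF-κB motif GGGNNNNNCC, as did 50.8% of all windows. SP1 (GGGCGG) occurred for F3 and Plaur (35.7% of all windows), C/EBP (TTNNGNAA) for F13a1, Plaur and Procr (40.7%), and the letters TATAAA of the TATA box for F3 (13.6%), on the minus strand at 43 bases after the start. CRE (TGACGTCA, 1.79%) and EGR1 (GCGTGGGCG, 0.612%) were found in 0 of the 4. Matches of SP1 in F3 and of C/EBP in Procr and F13a1 overlap a match of NF-κB, and several NF-κB matches on opposite strands share all but 1 base. A match describes letters in a window and was not tested as a binding site. The 250 bases before the RefSeq start are shown for the 3 genes with an AP-1 match, 5′ to 3′ on the plus strand, which is the strand of each gene, with the AP-1 matches in capitals. They lie at chr3:121723287-121723536 for F3, where the matches begin at -146 and -135 from the start, at chr7:24462233-24462482 for Plaur (-69) and at chr2:155750967-155751216 for Procr (-154). The RefSeq start of F3 is the first base of the gene in the deposited table. RefSeq places the start of Plaur at 24462483, 1 base before the table's gene, and that of Procr at 155751217, 100 bases inside the table's gene, so the last 100 bases shown for Procr lie within it.
F3: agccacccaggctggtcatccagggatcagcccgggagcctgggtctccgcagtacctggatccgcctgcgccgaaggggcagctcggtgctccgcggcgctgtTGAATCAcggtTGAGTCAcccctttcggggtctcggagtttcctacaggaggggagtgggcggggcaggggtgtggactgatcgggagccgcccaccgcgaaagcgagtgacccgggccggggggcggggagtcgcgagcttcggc
Plaur: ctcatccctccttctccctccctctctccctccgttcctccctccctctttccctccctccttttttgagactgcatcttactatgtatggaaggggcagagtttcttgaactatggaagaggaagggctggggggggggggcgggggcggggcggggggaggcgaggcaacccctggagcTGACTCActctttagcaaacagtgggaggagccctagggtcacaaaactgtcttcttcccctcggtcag
Procr: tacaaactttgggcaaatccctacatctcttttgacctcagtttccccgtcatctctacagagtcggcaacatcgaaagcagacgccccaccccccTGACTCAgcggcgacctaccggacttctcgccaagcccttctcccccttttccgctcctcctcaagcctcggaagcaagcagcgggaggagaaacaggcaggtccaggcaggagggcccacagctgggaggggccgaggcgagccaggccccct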

How the data were processed

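Expression values are FPKM as the authors deposited them, 1 column for each library, from RSEM by the study's methods. The submitters' processing notes also list HISAT2, featureCounts 1.5.0-p3 and the build GRCm39, without roles. The positions given match GRCm38, as start and end were identical in GENCODE M21 for 98.3% of 54409 shared identifiers. Every one of the 6 library columns was used.

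Multiplied by gene length, 100% of values fell on whole steps (tolerance 0.1 of a step), which gave the fragments on each gene. Fragment totals were 15742538 (Control replicate 1), 17135442 (Control replicate 2), 15529580 (Model replicate 1), 15526321 (Model replicate 2), 16222724 (MUS replicate 1) and 16481372 (MUS replicate 2). The per-million scale was 1.45 and 1.34 times the total in Control and between 0.909 and 0.998 times in the other libraries. A count of 0 allows up to 3 fragments, or 0.131 to 0.213 FPKM in a gene of 1 kb, which covers counting error only.

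limma 3.58.1 in R 4.3.3 was fitted (lmFit, contrasts.fit, eBayes with trend) to log2(FPKM + 1) of all 6 libraries in a model of 3 groups, with two-sided tests and Benjamini-Hochberg adjustment over the 9794 genes. Adding 1 understates the change of low genes. There were 3 residual and 4.04 prior degrees of freedom. An exact test of 2 against 2 libraries cannot give a p under 0.333. The fit was tested on simulated data. Python 3.11.15, NumPy 2.4.6, pandas 2.3.3 and Matplotlib 3.10.9 served for tables and figures.

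The labels give the replicate number as the batch, so the numbers pair the libraries across groups. Across genes, the replicate differences correlated at 0.12 (Control and Model), 0.14 (Model and MUS) and -0.09 (Control and MUS), and an alternative fit took the batch as a block. Other alternatives changed the pseudocount (0.1), the filter (none, or a mean of 5 FPKM), the scaling (quantile, fragment totals), the test (voom with trimmed-mean scaling on recovered fragments) and the libraries in the fit.

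The members and gene lists were chosen with earlier results of these data known. The genes named are the 7 genes, the 3 closest profiles to each, the other haemostasis genes that were DEGs in any comparison, the 3 of these haemostasis genes with the highest mean (Cd36, Anxa5 and Serpinb2), and Tnf, Ptgs2 and Nos2 as a check of the LPS label. Lrp1 and Ano6 were also named, after their values were seen. Of the listed haemostasis genes, 1 enters the counts but is neither named nor drawn. Of the 50-base stretches of their transcripts, the 7 genes shared 0% with other genes, except F13a1 with 0.209%. Strand use in counting is not given in the sources used here. Motifs were searched by exact letters.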

Additional observations from a re-analysis of the deposited data

How the results depend on the processing

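All 7 genes kept the sign of their difference from Control under every alternative in which they were tested; Thbd and F13a1 were not tested at a mean of at least 5 FPKM. Of 96 alternative values for the 7 genes in Model vs. Control, 82 kept their side of the threshold, 9 lost a call and 5 gained one, and in MUS vs. Control 78, 13 and 5. F3 was a DEG against Control in all of them. In MUS vs. Model 93 of 96 stayed as they were and 3 changed sign, for differences near 0: with one library left out, F13a1 ranged from -0.212 (without Model replicate 2) to 0.285, with -0.115 without MUS replicate 1, and Plau from -0.2 to 0.002 (without MUS replicate 1).

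Without the filter on low values, DEGs numbered 260 among all genes, 2 among the 7 genes and 2 among the other haemostasis genes in Model vs. Control, against 1475, 4 and 6, and 456, 2 and 3 in MUS vs. Control, against 1980, 4 and 8; more genes were tested there. With only the 2 groups compared, Model vs. Control gave 797, MUS vs. Model 7 and MUS vs. Control 2030. In MUS vs. Model the pseudocount of 0.1 gave 1 DEG and the replicate block 4, none of them among the 7 genes. Scaling to fragment totals gave 11 (Model) and 13 (MUS) of the other haemostasis genes against Control, beside 2200 and 2691 of all 9794 genes. Its shift of all genes is part of its construction. Upregulated genes made up 63.1% of DEGs in Model vs. Control, 49.7% with quantile normalization and 29.4% with fragment totals, and 55.9%, 44.5% and 27.4% in MUS vs. Control. For the other changes the cause was not tested.

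With each library left out in turn, DEGs in Model vs. Control ranged from 692 to 2077 among all genes, 3 to 5 among the 7 genes and 2 to 8 among the other haemostasis genes. In MUS vs. Model all genes ranged from 0 to 31. In MUS vs. Control the ranges were 184 to 2398, 1 to 5 and 2 to 8. A lone library was assumed to vary like the other groups. The replicate block changed no call of the 7 genes other than Thbd.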
